A study of Mus musculus with 16 samples.

Results

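Livers of Control mice at week 1 after birth (W1) were compared with livers of Control mice at postnatal day 1 (P1), as the first step of normal liver maturation in the series. The comparison held 12749 genes, which were the autosomal genes with at least 1 FPKM (fragments per kilobase of transcript, scaled to the mapped fragments of the library) in at least 2 of these 4 libraries, of 53379 genes in the table. Of the genes kept, 11226 were protein coding, 11152 reached 1 FPKM in all 4 libraries, 201 did so only in the W1 Control libraries and 420 only in the P1 Control libraries. A further 418 genes on the sex chromosomes or the mitochondrial genome met the level but were left out, and 36304 autosomal genes stood below it. The W1 Control and P1 Control groups were 2 livers each, from C57BL/6J mice of the genotype labelled WT, with no agent given. They served the study as littermate controls of Mettl3 cKO mice, in which exons of the m6A methyltransferase gene Mettl3 between loxP sites were removed by Cre under the albumin promoter, which acts in hepatocytes. Levels are also given for the Mettl3 cKO livers of W1 and P1 and the Control livers of W2 and W4, with 2 libraries each, and these groups and the Mettl3 cKO livers of W2 and W4 entered the fit that gives the spread.

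Before birth the mouse liver is the main site of blood formation, and a large part of its cells are erythroid precursors. Around birth blood formation moves to the bone marrow and the spleen. Hepatocytes take up the work of the adult organ, such as making plasma proteins and bile, breaking down amino acids and making glucose between milk meals. In a bulk liver sample, fewer cells of a type and less RNA per cell cannot be told apart, and a rise of hepatocyte transcripts cannot be told apart from a larger share of hepatocytes.

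The 4 libraries held an estimated 13.3 to 15.4 M reads each, so that a single read in a transcript 2 kb long gave 0.0325 to 0.0377 FPKM. Values below are FPKM divided by a factor per library (1.00 and 0.987 at W1, 1.15 and 1.25 at P1), found as the median ratio over 14218 genes. The tissue label was met in all 4 libraries, with Alb, which encodes albumin, at 41759 and 49680 rescaled FPKM in W1 Control and 25047 and 24080 in P1 Control. Transcripts of the mitochondrial genome made up 29.4 and 22.0% of all FPKM at W1 and 22.6 and 14.8% at P1. By Xist and the Y-linked gene Eif2s3y, both W1 Control livers were male, while P1 Control replicate 1 was male and replicate 2 female. Without the female P1 library the comparison was one of males only, which left P1 Control replicate 1 as the only P1 liver. Its counts are given beside the main ones. Mettl3 itself stood at 5.43 and 5.6 in W1 Control and 6.75 and 6.52 in P1 Control (log2 fold change -0.23, limma's adjusted p = 0.239). The p-values rest on the spread between replicate livers within each group, taken over all 16 libraries of the fit. Nothing in the labels ties the libraries to separate litters or days, so whether that spread includes litters or days is not known.

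A gene was called when its Benjamini-Hochberg adjusted p by limma was under 0.05. A log2 fold change is that of W1 Control over P1 Control on the scale log2(rescaled FPKM + 1), which understates the change of low genes. There were n = 2 livers per age, and fewer at an age where a library was left out. Between P1 and W1, 3742 of the 12749 genes were called (29.4%), 1541 higher (12.1%) and 2201 lower (17.3%) in W1 Control. These shares are the background against which the gene groups below are read. The log2 fold change was over 1 in size for 1189 of them, 487 higher and 702 lower. The 2 W1 Control libraries lay wholly above or below the 2 P1 Control libraries for 9115 genes (71.5%). Lack of overlap was thus common, and where it is stated for a gene below it is read against this share. It was also a condition for the choice of the largest rises and falls. The split depended on the scale, since 815 genes were higher and 3576 lower on the FPKM as deposited, where the median gene stood at -0.24, and 862 higher and 2930 lower when libraries were scaled to the total of nuclear genes, where it stood at -0.18. After rescaling the median gene was at -0.03. Of the calls, 611 higher and 1349 lower genes were also called on both other scales and in males only. The spread was estimated over all 16 libraries of the series, and 4458 genes were called with the 4 libraries alone and 3365 with the 8 Control libraries.

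**Figure D1:**
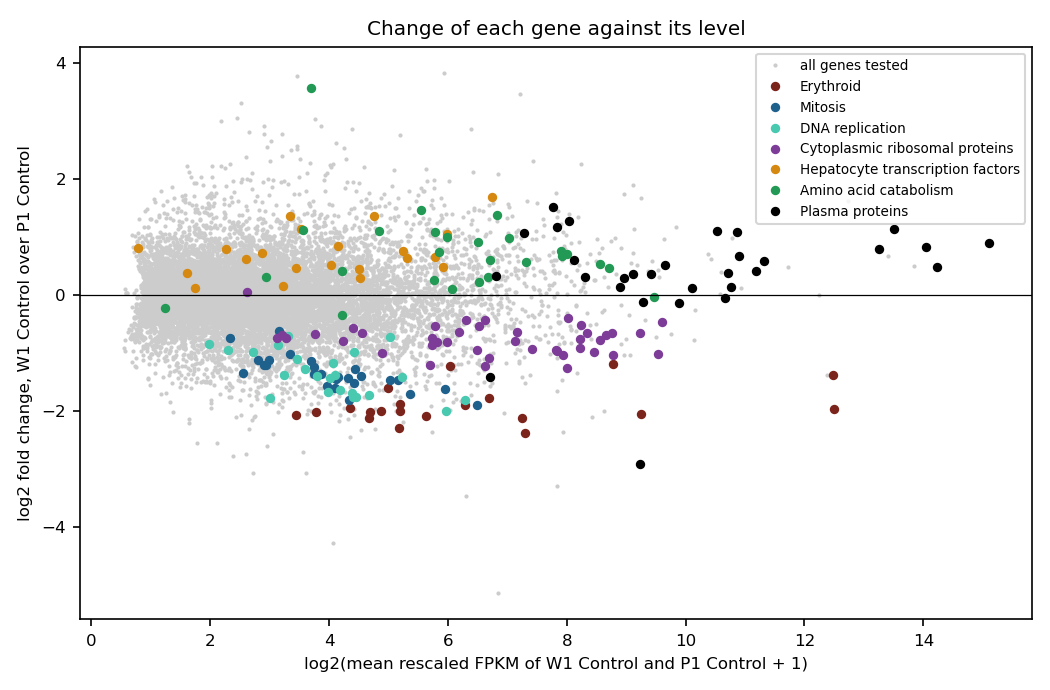
Each point is 1 of the 12749 genes, with the log2 of its mean rescaled FPKM over W1 Control and P1 Control plus 1 on the x axis and its log2 fold change, W1 Control over P1 Control, on the y axis; members of 7 gene groups are coloured. Red cell genes have a median of -2.01, mitosis and DNA replication genes of -1.39 and -1.40 and ribosomal protein genes of -0.76, below the median of all genes at -0.03.

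Red cell genes showed the largest group shift of this week. Of 20 red cell genes tested, 19 fell and none rose, with a median log2 fold change of -2.01 where the median of all genes was -0.03. Slc4a1, the band 3 anion exchanger of the red cell membrane (ENSMUSG00000006574, mm10 chromosome 11, 102348824 to 102366203), had 56.7 and 54.8 rescaled FPKM in the W1 Control libraries, against 234 and 259 in the P1 Control libraries (log2 fold change -2.12, SE 0.17, adjusted p = 1.6e-05). Both W1 livers lay far below both P1 livers, and the replicates of an age were close to each other.

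Genes of the membrane skeleton, of blood group proteins and of regulators were all called lower. The beta-spectrin gene Sptb had 7.3 and 7.42 in W1 Control and 33.5 and 29.3 in P1 Control. The skeleton gene Epb42 had 10.1 and 8.37 in W1 Control and 40.5 and 40.8 in P1 Control. The adducin gene Add2 had 3.29 and 3.05 in W1 Control and 16.9 and 16.3 in P1 Control. Their log2 fold changes were -1.95, -2.03 and -2.08. The Rh family genes Rhd and Rhag changed by -2.30 and -2.12, the erythroid nuclear factor Hemgn by -2.20, and Klf1, a master regulator of red cell genes, by -2.01. Among the globins, Hbb-bt had 249 and 221 in W1 Control and 1082 and 879.8 in P1 Control (-2.05, SE 0.31, adjusted p = 0.000733). Hba-a2, the only member that missed the test, had 424 and 148 in W1 Control and 483 and 688 in P1 Control (adjusted p = 0.137); the alpha globin copies are near-identical, so reads may be split between them. The embryonic globin genes Hbb-bh1 and Hbb-y stood below the level for testing. Summed over the group, the red cell transcripts made up 6849.8 and 5796 rescaled FPKM in W1 Control and 20547 and 20397 in P1 Control. The count of calls was 19 on either other scale and in males only, and 18 or 19 with any library left out.

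The promoters of Rhag and Rhd are shown because the erythroid factor GATA1 is known to bind sequences with the letters GATAA, and both genes fell strongly. They are taken from RefSeq (GRCm38.p6), 5′ to 3′ on the strand of the gene, and AGATAA or TGATAA on either strand is in capitals.
Rhag, chr17:40811019-40811198, plus strand: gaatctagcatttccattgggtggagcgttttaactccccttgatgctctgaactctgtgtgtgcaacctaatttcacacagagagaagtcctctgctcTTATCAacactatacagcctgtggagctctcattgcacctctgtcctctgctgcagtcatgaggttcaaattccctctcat
Rhd, chr4:134864406-134864585, plus strand: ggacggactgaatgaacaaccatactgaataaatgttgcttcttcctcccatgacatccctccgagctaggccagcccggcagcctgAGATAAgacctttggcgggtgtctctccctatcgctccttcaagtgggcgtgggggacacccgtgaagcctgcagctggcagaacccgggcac
Of the 15 red cell genes tested that had a promoter window (300 bases around the start), 6 held AGATAA (40%) and 6 held TGATAA (40%). Among the 9160 genes tested with a window the shares were 8.25 and 5.48%, and among all 32851 windows 11.2 and 9.05%. Of the other 10 groups searched, hepatocyte transcription factors had the highest share with AGATAA (22.2%) and conjugation genes the highest with TGATAA (16%). The red cell genes with TGATAA included the alpha globin copies Hba-a1 and Hba-a2, which may not be separate occurrences. A match of letters is a description and does not show that a factor binds there.

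Genes of cell division fell next to the red cell genes. Of 24 DNA replication genes 23 fell, with a median of -1.40, and of 26 mitosis genes 24 fell, with a median of -1.39; none rose in either group. Mcm2, a subunit of the helicase that unwinds DNA for replication (ENSMUSG00000002870, mm10 chromosome 6, 88883474 to 88898780), had 8.73 and 9.24 rescaled FPKM in W1 Control and 33.5 and 32.1 in P1 Control (-1.76, SE 0.21, adjusted p = 0.000172). Mcm3, Mcm5 and Mcm7 of the same helicase changed by -1.73, -1.65 and -1.43, and Cdc6, which loads it, by -1.78. Ccnb1, which encodes cyclin B1 (ENSMUSG00000041431, mm10 chromosome 13, 100778650 to 100786570), had 7.77 and 7.12 in W1 Control and 27.2 and 22.5 in P1 Control (-1.61, SE 0.24, adjusted p = 0.000694). Its partner kinase Cdk1 had 9.11 and 7.47 in W1 Control and 27.2 and 21.7 in P1 Control. Cyclin B2 (Ccnb2) had 19.4 and 16.2 in W1 Control and 56.8 and 46 in P1 Control. The spindle motor Kif11 had 7.18 and 5.87 in W1 Control and 18.9 and 17.7 in P1 Control. The W1 livers stood at about the same low level in each case, and the libraries of the 2 ages did not overlap.

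The members that missed the test had the same sign. They were Mcm6 (-0.98, adjusted p = 0.0531), the kinase Ttk (-0.76, 0.0565) and the mitotic transcription factor Foxm1 (-0.63, 0.107). Among cell cycle inhibitors and p53 targets, Cdkn2c fell (-1.36, SE 0.21), Gadd45a fell (-1.06) and Trp53inp1 rose (1.02), of 13 with 1 higher and 4 lower. The calls of Gadd45a and Trp53inp1 were lost without P1 replicate 1, that of Gadd45a also without W1 replicate 2, and that of Trp53inp1 also in males only and without W1 replicate 1. The summed level of the mitosis group was 280.0 and 240.0 rescaled FPKM in W1 Control and 862 and 716 in P1 Control. Red cell precursors divide, and the part of their loss in these values was not tested.

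The promoters of Ccnb2, Cdk1 and Kif11 are shown because mitosis genes share known promoter elements. TTTGAA, the letters of the cell cycle genes homology region, and CCAAT are in capitals, on either strand.
Ccnb2, chr9:70421505-70421804, minus strand: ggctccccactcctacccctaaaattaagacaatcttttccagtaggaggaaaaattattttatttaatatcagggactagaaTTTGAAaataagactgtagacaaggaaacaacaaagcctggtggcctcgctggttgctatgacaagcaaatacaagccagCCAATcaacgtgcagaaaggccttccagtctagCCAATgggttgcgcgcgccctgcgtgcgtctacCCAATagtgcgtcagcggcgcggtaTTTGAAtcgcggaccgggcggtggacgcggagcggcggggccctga
Cdk1, chr10:69352863-69353162, minus strand: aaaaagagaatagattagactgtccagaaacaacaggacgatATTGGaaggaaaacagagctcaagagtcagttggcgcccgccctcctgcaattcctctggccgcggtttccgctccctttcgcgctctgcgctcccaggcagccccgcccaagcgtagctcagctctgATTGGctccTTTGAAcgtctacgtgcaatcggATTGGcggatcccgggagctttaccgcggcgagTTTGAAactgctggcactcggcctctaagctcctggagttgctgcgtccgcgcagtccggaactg
Kif11, chr19:37376252-37376431, plus strand: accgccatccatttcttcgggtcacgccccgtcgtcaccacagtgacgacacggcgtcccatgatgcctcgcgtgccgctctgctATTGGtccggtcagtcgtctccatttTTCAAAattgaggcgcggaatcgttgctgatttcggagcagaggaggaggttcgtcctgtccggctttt
Of 21 mitosis genes tested with a window, 15 held TTTGAA (71.4%) and 17 held CCAAT (81.0%), against 14.6 and 42.6% of the genes tested with a window and 17.9 and 37.4% of all windows. TTTGAA was also held by 5 of 12 complement genes (41.7%) and 10 of 25 conjugation genes (40%), and CCAAT by 11 of 13 circadian clock genes (84.6%). Of the 19 DNA replication genes with a window, only 3 held TTTGAA (15.8%), while 4 held TTTGGCGC (21.1%), letters of a site for E2F factors, against 1.16% of the genes tested and 0.514% of all windows. The promoter of Mcm3, with TTTGGCGC in capitals, is an example.
Mcm3, chr1:20820263-20820442, minus strand: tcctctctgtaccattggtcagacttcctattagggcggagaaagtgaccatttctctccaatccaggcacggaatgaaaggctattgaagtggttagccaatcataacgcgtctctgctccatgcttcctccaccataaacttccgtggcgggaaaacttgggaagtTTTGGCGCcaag
In total 10 motifs were searched on both strands. Besides those already named and GTTAAT of the factor HNF1, they were CACGTG, a motif of clock factors, TGACCT, a motif of nuclear receptors, ATTGCGCAA, a motif of C/EBP factors, and TTCCNGGAA, a motif of STAT factors. TGACCT was held by 7 of 14 growth hormone axis genes (50%) and 8 of 19 amino acid genes (42.1%). Of the genes tested with a window 15.6% held it, and none of 15 red cell genes did. CACGTG was held by 4 of 13 circadian clock genes (30.8%), against 11.6% of the genes tested. The STAT motif was held by 1 of 14 growth hormone axis genes (7.14%), against 1.6%. No gene of the groups searched held the C/EBP motif. The 2 GATA motifs share all but their first letter.

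Transcripts of other blood cells fell in part. Of 21 granulocyte genes 7 fell and none rose (median -0.73), and of 12 megakaryocyte genes 6 fell and none rose (median -0.74). Mpo (myeloperoxidase) had 19.6 and 9.0 in W1 Control and 48.6 and 55 in P1 Control (-1.88, SE 0.32, adjusted p = 0.00137). Ctsg (cathepsin G) had 6.06 and 2.95 in W1 Control and 16.4 and 17.9 in P1 Control (-1.78). The proteinase 3 gene Prtn3 had 25.8 and 14.1 in W1 Control and 52.3 and 59.6 in P1 Control (-1.50), and the membrane protein gene Ms4a3 had 2.14 and 0.795 in W1 Control and 5.3 and 7.04 in P1 Control (-1.59). With 0.1 rather than 1 FPKM added, Mpo and Prtn3 were not called. W1 replicate 1 stood above W1 replicate 2 for all of these, and both stood below the P1 livers. S100a8, which encodes a calcium-binding protein of neutrophils, had 496 and 277 in W1 Control and 687 and 583 in P1 Control and missed the test (adjusted p = 0.155). The group count was 8, 4, 6 and 6 with W1 replicate 1, W1 replicate 2, P1 replicate 1 and P1 replicate 2 left out in turn, which is the order of such counts below.

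Of the platelet genes, Pf4 (platelet factor 4) had 54.4 and 52 in W1 Control and 94.7 and 132 in P1 Control (-1.06, SE 0.26, adjusted p = 0.01) and Gp1ba, a receptor for von Willebrand factor, changed by -0.80, which was not called with 0.1 FPKM added. With each library left out the platelet count was 2, 2, 5 and 1, and Pf4 was not called in males only or without W1 replicate 2. B cell genes were not called lower, with 1 of 12 higher. Cd79a, a signalling chain of the B cell receptor, had 17.8 and 13.7 in W1 Control and 17 and 22.3 in P1 Control and missed the test (adjusted p = 0.283). Igll1, part of the surrogate light chain of B cell precursors, was called higher (0.58, adjusted p = 0.0399), but the call was lost on both other scales and with any library left out. Of 5 basophil and mast cell genes limma called 0, with 2 at an unadjusted p under 0.05. Of 7 T and NK cell genes 1 rose and 1 fell. The cytokine receptor gene Il2rb had 1.84 and 1.38 in W1 Control and 0.558 and 0.988 in P1 Control (0.56, adjusted p = 0.0205), a call lost on both other scales and without P1 replicate 1 or W1 replicate 1. The chemokine gene Ccl5 had 5.22 and 8.53 in W1 Control and 2.84 and 3.04 in P1 Control and missed the test (adjusted p = 0.0618). Gzma (granzyme A) had 2.24 and 1.2 in W1 Control and 6.95 and 11.5 in P1 Control (-1.90, adjusted p = 0.00868), a call lost in males only and without W1 replicate 2.

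Ribosomal protein genes fell as a block, though less far. Of 42 tested 35 fell and none rose, with a median of -0.76. Rpl3 had 30.6 and 30.1 in W1 Control and 73.4 and 70.6 in P1 Control (-1.22, SE 0.23, adjusted p = 0.0024). Rpsa had 154 and 148 in W1 Control and 353 and 370.1 in P1 Control (-1.26). Rpl8 had 276 and 296 in W1 Control and 574 and 599.8 in P1 Control (-1.04). The W1 replicates differed little from each other and lay well below the P1 replicates. These genes have many processed copies in the genome that can share their reads, so their levels are uncertain. With each library left out the count was 20, 22, 17 and 24, and it was 40 on either other scale. The nuclear genes of the respiratory chain, which like ribosomal proteins are expressed in all cells, had no call by limma among 33 (median -0.17) and 0 with an unadjusted p under 0.05, while 5 were lower on the nuclear scale and 4 on the deposited one.

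Genes of the m6A pathway, the subject of the study, were tested in Control livers as well. Of 18 writers, erasers and readers 4 fell and none rose, where 17.3% of all genes were called lower and 12.1% higher. Rbm15b, an adaptor of the writer complex, had 2.69 and 2.85 in W1 Control and 5.47 and 4.98 in P1 Control (-0.72, SE 0.13, adjusted p = 0.00234). Its relative Rbm15 had 1.8 and 1.56 in W1 Control and 2.91 and 3.27 in P1 Control (-0.61). The reader Ythdf1 (-0.43) and Hnrnpa2b1 (-0.55) were the others. With any library left out only Rbm15b was called, and 11 members were lower on the deposited scale.

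**Figure D2:**
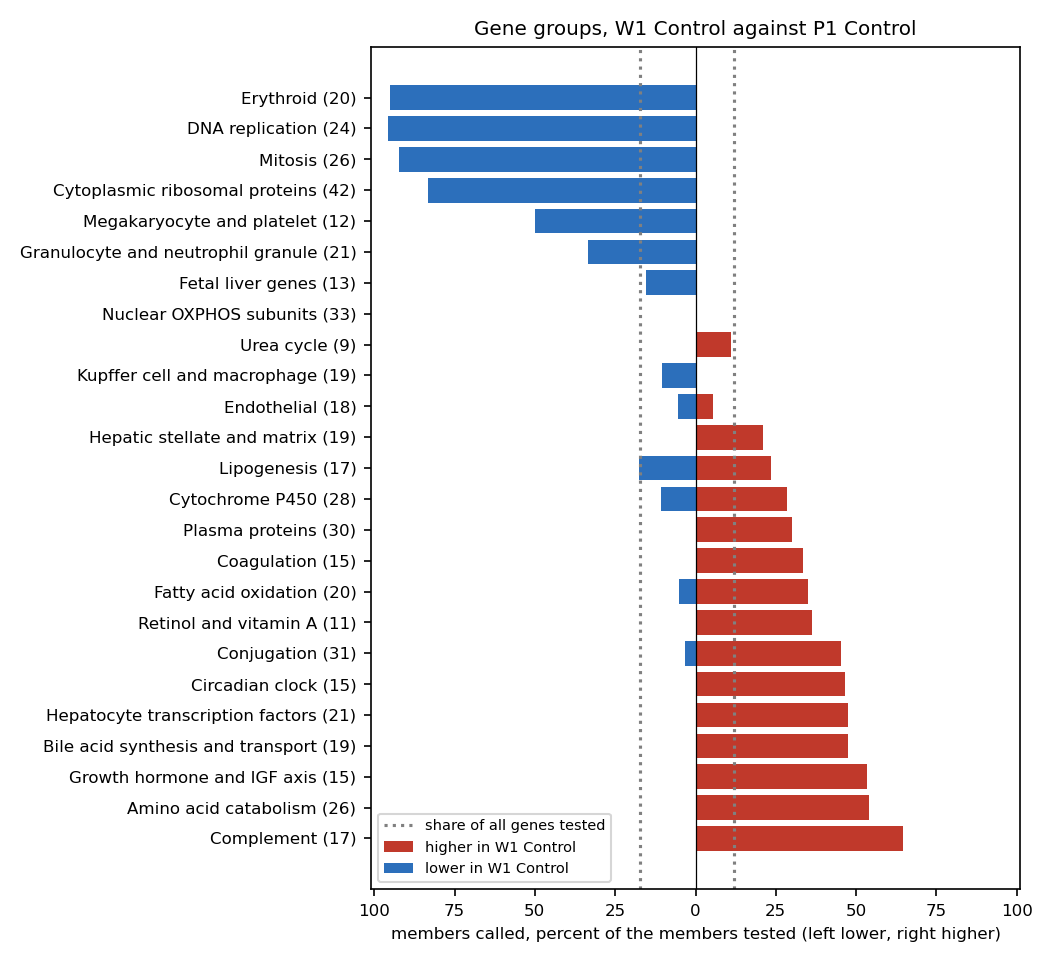
For each gene group, named with the number of members tested, the bars give the percent of members called lower (left) and higher (right) in W1 Control than in P1 Control, and the dotted lines give the same shares of all genes tested (17.3 and 12.1%). Of red cell genes 19 of 20 are lower, of replication genes 23 of 24, of mitosis genes 24 of 26 and of ribosomal protein genes 35 of 42, while 11 of 17 complement and 14 of 26 amino acid genes are higher.

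Transcription factors of hepatocytes rose, nuclear receptors among them. Of 21 tested 10 rose and none fell (median 0.65, lowest 0.12). Nr1h4, the bile acid receptor FXR, had 89.1 and 78.7 in W1 Control and 44 and 36.4 in P1 Control (1.05, SE 0.20, adjusted p = 0.00243). Ppara, the receptor that turns on fatty acid oxidation, had 11.7 and 15.7 in W1 Control and 5.11 and 4.34 in P1 Control (1.35). Nr5a2 (LRH-1) had 5.1 and 5.07 in W1 Control and 2.6 and 2.48 in P1 Control (0.78). The replicates of Nr5a2 were nearly equal at each age. Nr1i3, the xenobiotic receptor CAR, had 131 and 196 in W1 Control and 49.8 and 49 in P1 Control (1.68, SE 0.44), a call lost in males only and without P1 replicate 1 or W1 replicate 2. Each W1 liver stood above each P1 liver for these receptors. Hnf4a, a central regulator of hepatocyte genes, had 65 and 73.6 in W1 Control and 55.5 and 43.7 in P1 Control and missed the test (0.48, SE 0.18, adjusted p = 0.0674). The count was 5 on the deposited scale, 6 on the nuclear scale and 8, 5, 5 and 6 with each library left out. Beside this group and the hepatocyte groups below, the summed red cell transcripts fell to 6849.8 and 5796 rescaled FPKM in W1 Control, against 20547 and 20397 in P1 Control, and the part of this in the rise of hepatocyte transcripts was not tested.

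Fetal liver genes gave few calls. Of 13 tested 2 fell and none rose. Dlk1, a surface protein of hepatoblasts, had 2.73 and 4.34 in W1 Control and 9.76 and 11.4 in P1 Control (-1.37, SE 0.23, adjusted p = 0.0013). Lin28b, which blocks let-7 microRNAs, had 0.245 and 0.0651 in W1 Control and 1.62 and 1.4 in P1 Control (-1.12). Afp, which encodes the fetal plasma protein alpha-fetoprotein (ENSMUSG00000054932, mm10 chromosome 5, 90490737 to 90508907), had 3718 and 2293 in W1 Control and 7402 and 7822 in P1 Control, and missed the test (-1.38, SE 0.60, adjusted p = 0.104). The imprinted RNA H19 stood at 4464 and 5259.5 in W1 Control and 4566 and 5187 in P1 Control, with no detectable difference. Zhx3, of a family that represses fetal genes, rose (2.88 and 3.36 in W1 Control and 1.61 and 1.47 in P1 Control, 0.70), while its relative Zhx2 and Zbtb20 were below the level for testing.

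Plasma proteins made by hepatocytes rose in part. Of 30 tested 9 rose and none fell (median 0.44). Cp, the copper protein ceruloplasmin, had 357 and 389 in W1 Control and 159 and 148 in P1 Control (1.28, SE 0.17, adjusted p = 0.000272). Gc, the vitamin D binding protein, had 1708 and 2320 in W1 Control and 901 and 956 in P1 Control (1.10). The hyaluronan binding protein Itih1 had 331 and 302 in W1 Control and 127 and 155 in P1 Control (1.17). The thyroid hormone carrier Ttr had 15278 and 16610 in W1 Control and 7539 and 7048 in P1 Control (1.13). All 4 genes were higher in each W1 liver than in each P1 liver. With no filter on low values, Gc and Ttr were not called. Albumin changed by 0.89 (SE 0.27, adjusted p = 0.0283), a call lost on the deposited scale and with any library left out. The W1 replicates were not alike for every member. Serpina1e, of the alpha-1-antitrypsin family, had 28.9 and 511 in W1 Control and 947 and 929.5 in P1 Control (adjusted p = 0.0711); this family has near-identical copies that can share reads.

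Complement genes rose more widely, 11 of 17, with none lower (median 0.76). C9, the last protein of the membrane attack complex, had 10.5 and 13.8 in W1 Control and 1.02 and 0.815 in P1 Control (2.77, SE 0.45, adjusted p = 0.00109). C8g of the same complex had 102 and 136 in W1 Control and 45.7 and 50 in P1 Control (1.29). Complement component 5 (Hc) had 127 and 119.9 in W1 Control and 77 and 75 in P1 Control (0.69). C2 had 9.2 and 10.9 in W1 Control and 4.23 and 5.78 in P1 Control (0.88), whose call was lost without P1 replicate 1 or W1 replicate 2. Each W1 liver stood above each P1 liver for all 4. Of 15 coagulation genes 5 rose, among them F5 (44.4 and 47.3 in W1 Control and 23.4 and 24.4 in P1 Control, 0.91), F7 (0.78, not called on the deposited scale) and the prekallikrein gene Klkb1 (0.78). Prothrombin (F2) had 306 and 366 in W1 Control and 192 and 251 in P1 Control (adjusted p = 0.202). With each library left out the counts were 7, 5, 5 and 5 for plasma proteins, 7, 5, 4 and 7 for complement and 5, 4, 4 and 5 for coagulation, and on the deposited scale they were 6, 6 and 2, with 2 plasma proteins lower.

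The promoters of Alb, Gc and Itih1 are shown because GTTAAT, letters of the site bound by the hepatocyte factor HNF1, was common in the group. It is in capitals, on either strand.
Alb, chr5:90460740-90460919, plus strand: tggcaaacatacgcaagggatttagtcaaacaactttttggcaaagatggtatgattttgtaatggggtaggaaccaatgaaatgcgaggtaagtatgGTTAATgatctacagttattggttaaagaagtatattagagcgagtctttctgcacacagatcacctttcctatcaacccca
Gc, chr5:89457849-89458028, minus strand: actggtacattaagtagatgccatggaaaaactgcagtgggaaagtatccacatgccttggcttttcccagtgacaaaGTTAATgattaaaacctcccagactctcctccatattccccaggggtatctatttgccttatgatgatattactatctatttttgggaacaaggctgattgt
Itih1, chr14:30943240-30943419, minus strand: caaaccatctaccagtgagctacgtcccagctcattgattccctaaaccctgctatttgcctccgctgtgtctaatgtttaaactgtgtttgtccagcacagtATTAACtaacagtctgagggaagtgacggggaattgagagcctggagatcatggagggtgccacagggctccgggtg
Of 23 plasma protein genes tested with a window 11 held GTTAAT (47.8%), against 5.72% of the genes tested with a window and 7.1% of all windows, with 4 of 12 complement genes (33.3%), 5 of 18 hepatocyte transcription factor genes (27.8%), 6 of 25 conjugation genes (24%), 3 of 19 amino acid genes (15.8%), 2 of 21 mitosis genes (9.52%) and none of 15 red cell genes. The genes holding it included members that rose (Cp, Gc, Itih1, Alb) and members that did not (F2, Serpina1e). Serpina1a, Serpina1b, Serpina1c and Serpina1e all held it, and as copies of the same family they may not be separate occurrences.

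Genes of amino acid breakdown were among the hepatocyte groups that rose most. Of 26 genes 14 rose and none fell (median 0.63). Tdo2, which starts the breakdown of tryptophan (ENSMUSG00000028011, mm10 chromosome 3, 81957090 to 81976202), had 22.8 and 23.2 in W1 Control and 0.971 and 1.09 in P1 Control (3.56, SE 0.22, adjusted p = 7.32e-06), and the W1 replicates were nearly equal. For histidine, Hal had 18.8 and 12 in W1 Control and 6.24 and 6.55 in P1 Control (1.12). Amdhd1, of the same pathway, had 74.1 and 73.5 in W1 Control and 34.3 and 34.3 in P1 Control (1.08). The W1 livers did not overlap with the P1 livers for any of these. Aldh4a1, of proline breakdown, had 42 and 34.5 in W1 Control and 19.4 and 15.2 in P1 Control (1.10). Tat (tyrosine aminotransferase) had 123 and 111 in W1 Control and 59.5 and 64.5 in P1 Control (0.91). The count was 9 on the deposited scale and 10, 7, 8 and 8 with each library left out. The urea cycle, which takes up the nitrogen set free, gave 1 call. Of 9 genes only the glutaminase Gls2 was called (93.7 and 74.8 in W1 Control and 40.7 and 26.8 in P1 Control, 1.31), and it lost the call in males only and without W1 replicate 1. Cps1, the entry enzyme of the cycle, had 83.5 and 67.6 in W1 Control and 137 and 119.5 in P1 Control (adjusted p = 0.119). Ass1 had 191 and 149 in W1 Control and 237 and 179.6 in P1 Control. Arg1 had 304 and 332 in W1 Control and 358 and 263 in P1 Control.

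In glucose metabolism single steps changed in both directions. Pck1, the rate-limiting enzyme of gluconeogenesis (ENSMUSG00000027513, mm10 chromosome 2, 173153048 to 173159273), had 754 and 1111 in W1 Control and 256 and 325 in P1 Control (1.66, SE 0.24, adjusted p = 0.000516). Khk, which phosphorylates fructose, had 66.9 and 80.5 in W1 Control and 18.2 and 23.1 in P1 Control (1.79). Gckr, the regulator of glucokinase, had 130.1 and 103 in W1 Control and 49 and 49.8 in P1 Control (1.21). In each case both W1 livers were well above both P1 livers. The liver glycogen synthase Gys2 had 105 and 111 in W1 Control and 58.1 and 49.2 in P1 Control (1.0). Hk1, the hexokinase of most other cells, fell to 5.95 and 4.75 in W1 Control, against 19.4 and 19.5 in P1 Control (-1.69, SE 0.13, adjusted p = 1.34e-05). Of 16 gluconeogenesis and glucose genes 3 rose and 2 fell. The 3 were Pck1, Gckr and Tat, which is also counted in the amino acid group. Khk is counted in the fructose and galactose group and Gys2 in the glycogen group.

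In fatty acid oxidation 7 of 20 genes rose and 1 fell (median 0.50). Acaa1a, a thiolase of peroxisomes, had 27.7 and 37.3 in W1 Control and 14 and 16.7 in P1 Control (1.02, SE 0.20, adjusted p = 0.0033). Cpt1a, which brings fatty acids into mitochondria, had 87.1 and 98.7 in W1 Control and 53.3 and 45.1 in P1 Control (0.91), a call lost on the deposited scale, without W1 replicate 2 and in males only. Without W1 replicate 2 only 2 oxidation genes were higher, while the other exclusions gave 8, 7 and 3 (W1 replicate 1, P1 replicate 1 and P1 replicate 2). Of lipogenic genes 4 of 17 rose and 3 fell, but 2 rose and 4 fell on the deposited scale, and 2 rose and 1 fell without P1 replicate 1 or W1 replicate 2. Elovl6, an elongase of saturated fatty acids, fell (1.27 and 1.26 in W1 Control and 4.79 and 5.17 in P1 Control, -1.40). Elovl5, an elongase of polyunsaturated fatty acids, rose (120.0 and 159 in W1 Control and 47.2 and 53.7 in P1 Control, 1.44). Mlxipl, the carbohydrate-sensing factor ChREBP, had 121 and 130.5 in W1 Control and 49 and 41.5 in P1 Control (1.46). Fasn had 5.48 and 10.6 in W1 Control and 10.7 and 12.2 in P1 Control (adjusted p = 0.255). Of 16 cholesterol genes 3 fell and none rose. They included Sqle and Cyp51 of the synthesis pathway (-1.0 and -0.97), and both calls were lost without P1 replicate 1 and without W1 replicate 1.

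Transcripts of bile acid and sterol handling and of conjugating enzymes rose in part, while export itself was not measured. Of 19 bile acid genes 9 rose and none fell (median 0.60). Abcg5 and Abcg8 encode the paired exporter of sterols into bile. Abcg8 had 28.8 and 34.4 in W1 Control and 4.9 and 5.99 in P1 Control (2.34, SE 0.21, adjusted p = 2.61e-05). Abcg5 had 75.3 and 73.2 in W1 Control and 18.7 and 23.2 in P1 Control (1.78, SE 0.23). The uptake transporter Slco1a4 had 4.76 and 8.26 in W1 Control and 0.444 and 0.695 in P1 Control (2.22). None of these overlapped between ages. Slc27a5, which activates bile acids for conjugation, had 63.2 and 80.8 in W1 Control and 26.5 and 30.3 in P1 Control (1.30). Cyp7a1, the rate-limiting enzyme of bile acid synthesis, had 3.23 and 7.55 in W1 Control and 6.5 and 6.3 in P1 Control (adjusted p = 0.738). The count was 8, 6, 7 and 7 with each library left out, and on the deposited scale 8 were higher and 2 lower.

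Of 31 conjugation genes 14 rose and 1 fell (median 0.64). The glycosyltransferase gene Ugt3a2 had 26.4 and 36.4 in W1 Control and 5.19 and 4.03 in P1 Control (2.52). The glucuronosyltransferase Ugt2b36 had 81.1 and 90.7 in W1 Control and 22.4 and 19.7 in P1 Control (1.98). The sulfotransferase Sult2a8 had 52.5 and 57.3 in W1 Control and 11 and 12.2 in P1 Control (2.15, SE 0.21, adjusted p = 4.09e-05). These families hold near-identical copies, so reads may be split between members. Each W1 liver stood above each P1 liver for all 3 genes. The count was 9 higher and 2 lower on the deposited scale, and 10, 8, 9 and 8 with each library left out. Of 28 cytochrome P450 genes 8 rose and 3 fell. Cyp4v3 had 13.9 and 14.1 in W1 Control and 5.66 and 4.64 in P1 Control (1.29). Cyp2d10 had 145 and 202 in W1 Control and 92.7 and 104 in P1 Control (0.80), a call lost on the deposited scale and without P1 replicate 1 or W1 replicate 2. Cyp4a12a had 0.115 and 0.174 in W1 Control and 4.59 and 3.57 in P1 Control (-2.14). Cyp39a1 had 2.7 and 2.56 in W1 Control and 8.39 and 9.36 in P1 Control (-1.44). Cyp4a12a stood near 0 in both W1 livers. With each library left out the P450 count was 5, 3, 2 and 3 higher, and 2 to 3 were lower.

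Genes of the growth hormone axis rose in this week. Of 15 genes 8 rose and none fell (median 0.84). Igf1, the hormone made by the liver in answer to growth hormone (ENSMUSG00000020053, mm10 chromosome 10, 87858265 to 87937042), had 78.8 and 81.1 in W1 Control and 17.6 and 16.6 in P1 Control (2.16, SE 0.18, adjusted p = 1.8e-05). The receptor gene Ghr had 53.4 and 54.8 in W1 Control and 23.4 and 21.5 in P1 Control (1.23, SE 0.17). Igfals, which holds IGF1 in the circulation, had 61.6 and 74.6 in W1 Control and 21.5 and 18.6 in P1 Control (1.71). The W1 replicates were close for all 3. The prolactin receptor gene Prlr had 11.4 and 12.5 in W1 Control and 3.23 and 3.62 in P1 Control (1.55). These 4 calls held on both other scales and with any library left out, and the group count was 8, 7, 6 and 7, with 1 member lower on either other scale.

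Other hormone pathways rose at single genes. Dio1, the liver deiodinase that activates thyroid hormone, had 20.7 and 40.6 in W1 Control and 5.8 and 8.08 in P1 Control (1.93, SE 0.34). The receptor Thrb had 3.61 and 3.75 in W1 Control and 1.79 and 1.91 in P1 Control (0.72). The carrier Slc16a10 fell (4.93 and 4.39 in W1 Control and 12.8 and 13.4 in P1 Control, -1.32). Of 9 glucocorticoid and stress genes 6 rose, among them Hsd11b1, which makes active glucocorticoid (183 and 196 in W1 Control and 98.7 and 87.6 in P1 Control, 1.02), a call lost in males only and without W1 replicate 2. The count was 3, 1, 2 and 2 with each library left out. Nr3c1, the glucocorticoid receptor gene, had 6.95 and 7.07 in W1 Control and 5.87 and 5.11 in P1 Control (adjusted p = 0.129).

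Of 15 circadian clock genes 7 rose and none fell (median 0.68). Per3 had 7.47 and 10.1 in W1 Control and 1.55 and 1.36 in P1 Control (1.98, SE 0.15, adjusted p = 1.34e-05). The output factor Tef had 23.5 and 24 in W1 Control and 7.8 and 7.18 in P1 Control (1.54). Per1 had 11.7 and 14.8 in W1 Control and 4.43 and 4.74 in P1 Control (1.34). These genes change over the day, the hour at which livers were taken is not stated in the sources, and its part in the differences was not tested. The count was 6, 5, 7 and 5 with each library left out.

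The remaining groups gave few calls or swings within an age. Of 17 acute phase and iron genes 3 rose and 1 fell, of 9 glycogen genes 1 rose and 1 fell, of 8 fructose and galactose genes 2 rose, of 14 oxidative stress genes 2 rose, of 15 hypoxia and glycolysis genes 1 rose and 2 fell, and of 18 interferon genes 2 rose and 3 fell. On the deposited scale 2 acute phase and iron genes rose and 4 fell, 1 oxidative stress gene rose and 2 fell, and 1 hypoxia and glycolysis gene rose and 6 fell. Without P1 replicate 1 only 1 acute phase and iron gene rose and none fell. Of 11 retinol genes 4 rose, with Rdh16 at 4.1 and 4.69 in W1 Control and 0.477 and 0.365 in P1 Control (1.92). Rarres2, which encodes chemerin, had 308 and 365 in W1 Control and 124 and 121 in P1 Control (1.45). Gclc, the rate-limiting enzyme of glutathione synthesis, had 116 and 119 in W1 Control and 48.2 and 38.1 in P1 Control (1.43, SE 0.16, adjusted p = 9.65e-05). The W1 livers were alike for these genes. Vegfa, the vascular growth factor, had 92.3 and 98.9 in W1 Control and 32.9 and 39.1 in P1 Control (1.39). The interferon genes split, with Rsad2 (-2.02) and Isg15 (-1.58) lower and Zbp1 (1.94) and Ifitm3 (1.22) higher. Isg15 differed between the P1 livers (11.2 and 11.9 in W1 Control and 22.2 and 59.8 in P1 Control) and lost its call in males only and without either W1 replicate. Mt2, a zinc-binding metallothionein, had 8.74 and 669 in W1 Control and 755 and 139 in P1 Control, so that 1 library of each age was high and the other low.

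The hepcidin genes Hamp and Hamp2 went in opposite directions. Hamp had 18.7 and 81.6 in W1 Control and 481 and 324 in P1 Control (-3.29, SE 0.96, adjusted p = 0.0225). Hamp2 had 3.99 and 16.6 in W1 Control and 0.449 and 0.239 in P1 Control (2.81, SE 0.92, adjusted p = 0.0373). W1 replicate 2 was about 4 times W1 replicate 1 for both genes. Hamp lost its call without W1 replicate 1 or either P1 replicate, and Hamp2 without W1 replicate 2 or either P1 replicate.

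Calls among markers of liver cells other than hepatocytes and blood cells differed by cell type. Of all genes tested 12.1% were called higher and 17.3% lower. Of 19 Kupffer cell and macrophage genes 2 fell and none rose (median -0.01), and neither fell in males only or without W1 replicate 2. Of 18 endothelial genes 1 rose and 1 fell, and neither was called in males only. Of 19 stellate cell and matrix genes 4 rose, with Col3a1 at 60.3 and 75.9 in W1 Control and 32.6 and 29.1 in P1 Control (1.11). Pdgfrb, a receptor of stellate cells, had 4.44 and 5.45 in W1 Control and 2.41 and 2.45 in P1 Control (0.79). None of the 4 was called without W1 replicate 2. Of 6 ductal genes 2 rose and 1 fell. Of the zonation groups 3 of 13 pericentral and 5 of 14 periportal genes rose and none fell. The pericentral count was 1 higher and 1 lower on the deposited scale, 3 higher and 1 lower on the nuclear scale, 0 higher and 1 lower without W1 replicate 2, and 1 higher without P1 replicate 1, and the periportal count was 3, 4, 4 and 3 higher with each library left out. Glul, the glutamine synthetase of pericentral cells, had 77.2 and 125 in W1 Control and 149 and 143 in P1 Control (adjusted p = 0.0562). The periportal P450 Cyp2f2 had 19.7 and 16.2 in W1 Control and 26.3 and 27.9 in P1 Control (adjusted p = 0.35).

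**Figure D3:**
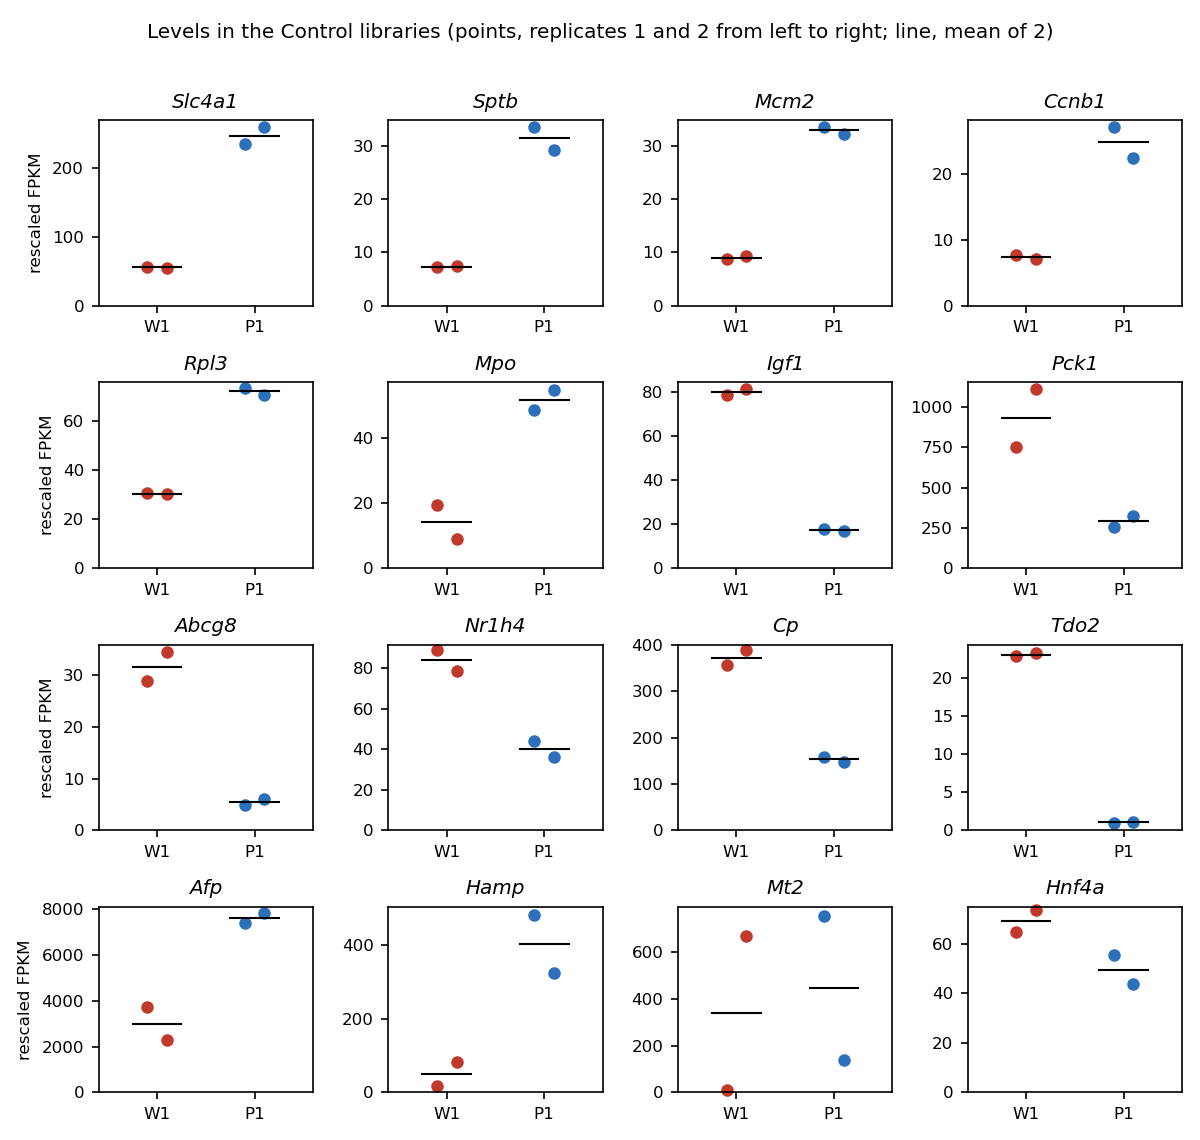
Rescaled FPKM (y axis, from 0) of 16 genes in the 2 W1 Control libraries (left, red) and the 2 P1 Control libraries (right, blue), with lines at the means. Slc4a1, Sptb, Mcm2, Ccnb1, Rpl3 and Mpo are lower and Igf1, Pck1, Abcg8, Nr1h4, Cp and Tdo2 higher in both W1 livers, Afp and Hnf4a do not overlap between ages but missed the test, and Hamp and Mt2 differ widely between replicates.

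The largest single rises included those of enzymes and transporters of hepatocytes. Inmt, a methyltransferase of small amines, had 90 and 135 in W1 Control and 3.94 and 11.5 in P1 Control (3.82, SE 0.52, adjusted p = 0.000365). Mettl7b had 247 and 294 in W1 Control and 24 and 23.3 in P1 Control (3.46), with its replicates close at both ages. Fmo2, a flavin monooxygenase, had 11.5 and 13 in W1 Control and 0.627 and 0.936 in P1 Control (2.90). Slc22a7, an organic anion transporter, had 18.8 and 27.7 in W1 Control and 1.92 and 1.95 in P1 Control (3.02). Fmo2 and Slc22a7 stood below 2 rescaled FPKM in the P1 livers. Serpina6, which encodes the corticosteroid carrier of plasma, had 41.9 and 84.3 in W1 Control and 8.51 and 7.57 in P1 Control (2.74). The nuclear long noncoding RNA Neat1 had 30 and 27.3 in W1 Control and 4.06 and 3.69 in P1 Control (2.61). Sult2a5 had 6.81 and 12.2 in W1 Control, against 0 and 0.0498 in P1 Control, where it rested on almost no reads, so that its fitted value of 3.31 depends on the 1 FPKM added. Also over 3 were the predicted genes Gm27463, a microRNA (3.76), and Gm12265, an antisense RNA whose reads may come from the other strand (3.05). Fgf21, the hormone of fasting and milk feeding, had 21.2 and 27.9 in W1 Control and 4.26 and 1.15 in P1 Control (2.91, SE 0.85, adjusted p = 0.0228), a call lost without either W1 replicate and in males only.

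The largest falls included genes of mixed kind. Of the 4 called genes with a log2 fold change under -3, 2 were the processed pseudogenes Gm8730 (5.12 and 4.64 in W1 Control and 139 and 308 in P1 Control, -5.14) and Gm9625 (0.292 and 0.81 in W1 Control and 19.2 and 42.5 in P1 Control, -4.28), and the others were Hamp and the microRNA gene Mir451a, which is known from red cells. Mir451a had 0.969 and 0 in W1 Control and 9.98 and 11.6 in P1 Control (-3.07, SE 0.35). Reads of pseudogenes can come from their parent genes, and a microRNA gene is short, so these levels are uncertain. Smcp, known from sperm, had 0.243 and 0.327 in W1 Control and 10.5 and 5.87 in P1 Control (-2.79, SE 0.24). The histone gene Hist1h2af had 2.1 and 0.529 in W1 Control and 12 and 12.7 in P1 Control (-2.61). The gamma-glutamyltransferase Ggt1 had 0.129 and 0.389 in W1 Control and 6.54 and 6.28 in P1 Control (-2.56, SE 0.18, adjusted p = 1.34e-05). The surface glycoprotein Cd24a had 79.9 and 77.4 in W1 Control and 421 and 401 in P1 Control (-2.37). The replicates of Cd24a lay close at both ages. The aldose reductase family gene Akr1b7 had 14.7 and 17.8 in W1 Control and 75.5 and 102 in P1 Control (-2.37). Ggt1 stood below 1 rescaled FPKM in both W1 livers and above 6 in both P1 livers.

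Levels at W2 and W4 set the first week in its course. Comparisons of W2 or W4 with W1 share the W1 Control libraries with the comparison above, so only levels are given. The red cell genes went on downward, with Slc4a1 at 1.82 and 2.31 at W2 and 0.254 and 0.215 at W4. Mcm2 was at 2.89 and 5.04 at W2 and 0.585 and 0.841 at W4, and Ccnb1 at 1.19 and 1.75 at W2 and 0.464 and 0.965 at W4. Afp was at 17.7 and 13.7 at W2 and 1.89 and 3.02 at W4, and H19 at 1105 and 561 at W2 and 2.53 and 4.52 at W4. Afp and H19 thus stood far lower at W2 than at W1, whereas Slc4a1 had a lower level at each age than at the one before. Among genes that rose, Igf1 was at 110.3 and 147 at W2 and 112 and 135 at W4 and Abcg8 at 37.6 and 28.4 at W2 and 56.8 and 40.9 at W4. Tdo2 was at 29.2 and 32.6 at W2 and 283 and 172 at W4, Inmt at 93.3 and 174 at W2 and 708 and 841 at W4, and Tat at 231 and 307 at W2 and 1005 and 1032 at W4, so that these 3 stood far higher at W4 than at W1. Of the urea cycle genes not called at W1, Cps1 was at 388 and 368 and Arg1 at 1811 and 1799 at W4, above both earlier ages. Rpl3 was at 21.3 and 23.5 at W2 and 30 and 15.9 at W4. The Control libraries of W2 had 58.1 and 59.0% mitochondrial transcripts, and the part of this in their levels was not tested.

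**Figure D4:**
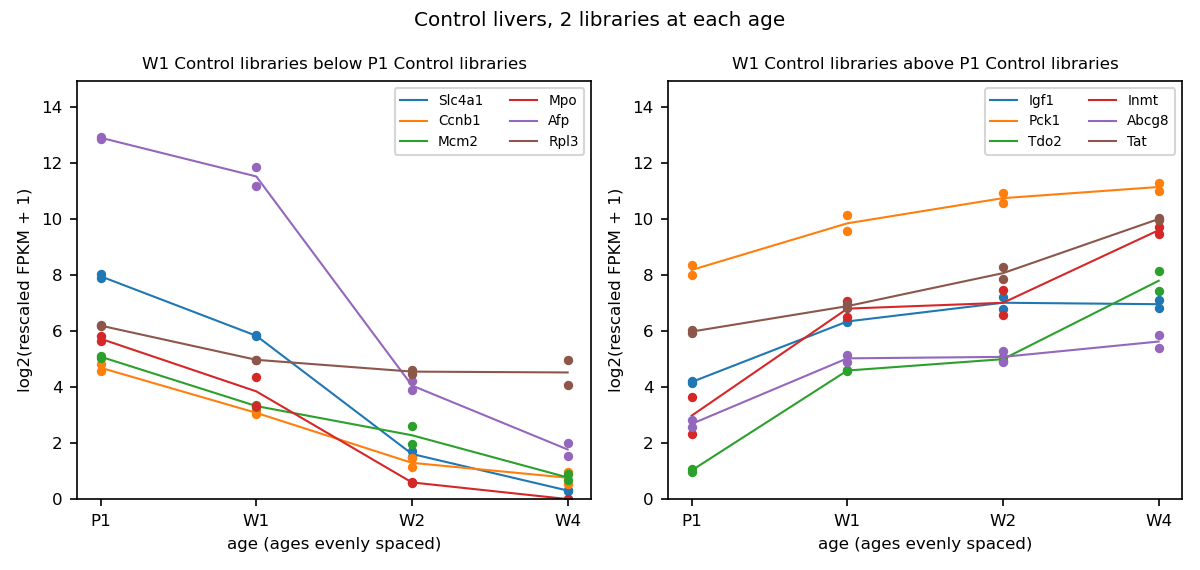
The y axis gives log2(rescaled FPKM + 1) in Control livers at P1, W1, W2 and W4 (x axis, ages evenly spaced), with a point for each of 2 libraries and lines through the means, for 6 genes with lower and 6 with higher values at W1 than at P1. Slc4a1, Ccnb1, Mcm2 and Mpo decline from P1 on, Afp has its steepest drop between W1 and W2, and Tdo2, Inmt and Tat are highest at W4.

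The same week in Mettl3 cKO livers gave a separate view of the step, since it shares no library with the Control step. Of the 12749 genes 2756 were called between W1 and P1 in Mettl3 cKO (21.6%), 1064 higher (8.35%) and 1692 lower (13.3%). Of the 1541 genes higher in Control at W1, 1384 had the same sign in Mettl3 cKO and 552 were called higher there. Of the 2201 lower genes 2035 had the same sign and 1168 were called lower. The share with the same sign over all genes tested is not given here. Red cell genes had a median log2 fold change of -2.30 in Mettl3 cKO and -2.01 in Control, and mitosis genes of -1.28 in Mettl3 cKO and -1.39 in Control. Amino acid genes had a median of 0.66 in Mettl3 cKO and 0.63 in Control. The medians lay further apart for ribosomal protein genes, at -0.36 in Mettl3 cKO and -0.76 in Control. The same held for growth hormone axis genes, at 0.27 in Mettl3 cKO and 0.84 in Control. Other groups lay further apart than the ribosomal one, among them urea cycle genes (0.63 in Mettl3 cKO and 0.004 in Control). So did B cell genes (-0.57 in Mettl3 cKO and 0.03 in Control). Cell cycle inhibitors and p53 targets also did (0.40 in Mettl3 cKO and -0.19 in Control). In Mettl3 cKO 8 ribosomal protein genes fell, against 35 in Control, and the difference between the steps was tested only gene by gene.

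The test of the difference between the 2 steps called 3 of 12749 genes (0.0235%), and 1721 had an unadjusted p under 0.05. Tpm3-rs7, a tropomyosin-related gene, had 0.789 and 1.05 at W1 and 1.31 and 0.993 at P1 in Mettl3 cKO, and 16 and 10.3 at W1 and 1.43 and 0.996 at P1 in Control (difference -2.81, SE 0.31, adjusted p = 0.0115). Phlda3, a p53 target, had 15 and 15.7 at W1 and 2.36 and 2.84 at P1 in Mettl3 cKO, and 1.9 and 1.67 at W1 and 1.46 and 1.85 at P1 in Control (2.12, SE 0.28, adjusted p = 0.0385). The predicted gene Gm7125 had 1.07 and 1.25 at W1 and 0.839 and 0 at P1 in Mettl3 cKO, and 0 and 0.258 at W1 and 2.39 and 2.86 at P1 in Control (2.36, adjusted p = 0.0494). All 4 Mettl3 cKO livers of P1 and W1 were female and 3 of the 4 Control livers male, so sex and genotype cannot be told apart here. For Afp the Mettl3 cKO livers had 5243 and 5825 at W1 and 3739.6 and 6434 at P1 (difference of the steps 1.55, SE 0.85, adjusted p = 0.434), and for Nr1i3 33 and 16.3 at W1 and 35.5 and 24.4 at P1 (-2.01, adjusted p = 0.279).

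**Figure D5:**
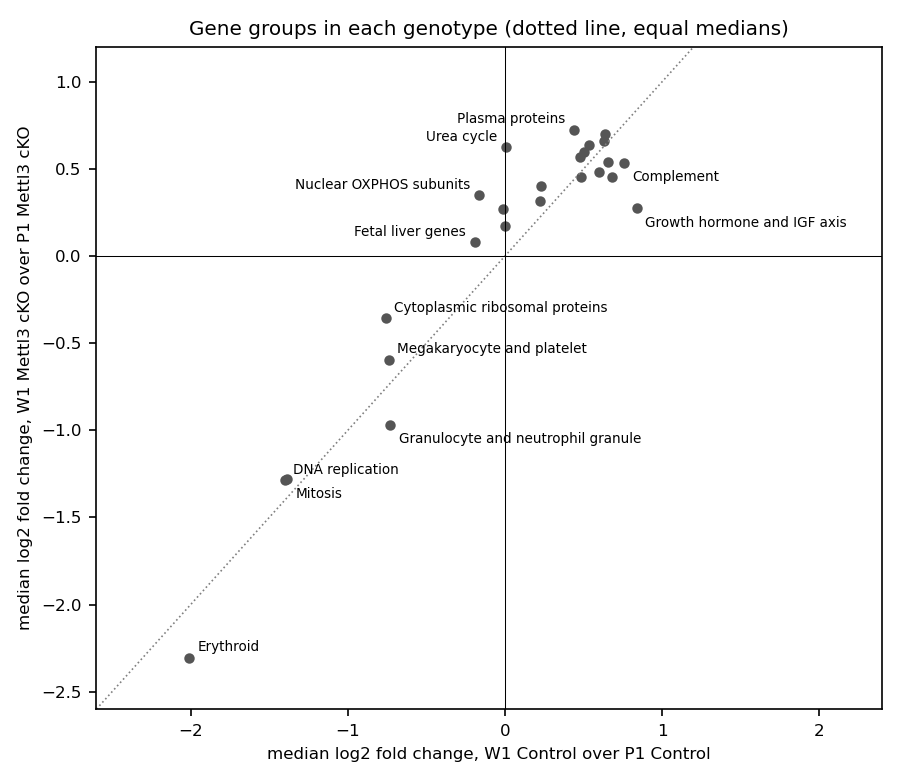
Each point is a gene group, with its median log2 fold change, W1 Mettl3 cKO over P1 Mettl3 cKO, on the y axis and W1 Control over P1 Control on the x axis; the dotted line marks equal medians. Red cell genes lie lowest (-2.30 in Mettl3 cKO and -2.01 in Control), and ribosomal protein genes lie above the dotted line (-0.36 in Mettl3 cKO and -0.76 in Control). Urea cycle genes lie further above it (0.63 in Mettl3 cKO and 0.004 in Control).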

How the data were processed

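Poly(A) RNA of mouse livers was sequenced, and the authors deposited 1 table of FPKM per gene for 16 libraries in 8 groups. The submitters' processing notes name HISAT2, DESeq2 and mm10 with no versions, and the counting tool, the annotation and any use of strand were not stated in any source used. No column of per-sample values was left without a sample, and 53274 of 53379 gene IDs were matched to an mm10 annotation for position.

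Gene groups and the genes compared were chosen with earlier results of these data known. Some genes were in more than 1 group (840 entries for 810 distinct genes), so the groups are not wholly separate. FPKM was divided by a median-of-ratios factor per library over 14218 genes. Genes on autosomes with at least 1 deposited FPKM in at least 2 of the 4 libraries were kept (just inside, Gm6104 with a deciding value of 1 FPKM; just outside, Zfp560 with 0.9995). All 16 libraries entered 1 limma fit (version 3.58.1, R 4.3.3) on log2(rescaled FPKM + 1) with a mean per group and an intensity trend, Benjamini-Hochberg adjustment over all genes kept, and a call under 0.05; the fit was tested on simulated data. Depth was estimated from the smallest steps of the FPKM values and is approximate. Because FPKM are shares of a library, a few abundant transcripts move all others.

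Named genes were the first of each group, up to 4 per group with the smallest adjusted p, the 15 largest rises and 15 largest falls with a mean of at least 5 rescaled FPKM in the higher group, libraries of the 2 ages not overlapping and a name that is not of a predicted gene, clone or pseudogene, up to 5 with a genotype difference, and Mettl3, Hnf4a, Alb and Afp. Chosen after their values were seen were Arg1, Ass1, Foxm1, Gm12265, Gm27463, Gm8730, Gm9625, H19, Hba-a2, Klf1, Mcm6, Nr1i3, S100a8, Serpina1e and Ttk, and the genes of the closing observations. Alternatives changed the scale, the filter, the FPKM added, the libraries in the fit, a replicate block, a sex term, the intensity trend and the threshold. Some genes that this rule names are not reported here.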

Additional observations from a re-analysis of the deposited data

Results flagged for a closer look

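The change from P1 to W1 differed between Mettl3 cKO and Control by limma's interaction test for 3 genes. Tpm3-rs7 had a difference of -2.81 on the log2 scale, Mettl3 cKO minus Control (adjusted p = 0.0115), with both W1 Control livers above the other 6 livers. Phlda3 had a difference of 2.12 (adjusted p = 0.0385), with both W1 Mettl3 cKO livers above the other 6. Gm7125, a predicted gene, had a difference of 2.36 (adjusted p = 0.0494). On the nuclear scale none of the 3 was called, with 1562 genes at an unadjusted p under 0.05. At W1 the Control livers were male and the Mettl3 cKO livers female, so sex and genotype cannot be told apart there.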

How the results depend on the processing

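Of the 140 called genes named with a value, no direction reversed under any alternative, and 6 calls were lost on the FPKM as deposited, 2 on the nuclear scale, 15 with no filter, 5 with 0.1 FPKM added, 2 with the 4 libraries alone, 7 with the 8 Control libraries and 17 with a sex term. With 1 library left out 13 to 18 were lost, and the total of called genes was 1873 to 2245 (main 3742), with 696 to 889 higher (main 1541) and 1114 to 1372 lower (main 2201). A sex term gave 2154, 783 higher and 1371 lower. By Xist and Eif2s3y, P1 Control was the only group of the fit with livers of both sexes. The sex term was thus estimated from that pair alone, which amounts to leaving out P1 replicate 2. Its results are therefore not a check separate from that in males only. Calls higher numbered 815 as deposited and 862 on the nuclear scale, and calls lower 3576 as deposited. The study's threshold (unadjusted p under 0.05 and a log2 fold change over 1 in size) gave 1252, 527 higher and 725 lower. The genotype difference called 0 genes on the nuclear scale, 1 with 0.1 FPKM added and 1 with the replicate block. The deviations of same-numbered P1 and W1 libraries from their age means had r = 0.06 across genes. Over all pairs of groups r ran from -0.275 to 0.386. With 2 livers per age this cannot tell whether the numbers mark a shared litter or day. The replicate block gave 3676 calls, 1532 higher and 2144 lower. Among named genes that missed the test, the log2 fold change changed sign for Arg1 (-0.22 as deposited, -0.15 on the nuclear scale, -0.17 with a sex term and -0.17 to 0.27 with a library left out), H19 (0.086 with a sex term and -0.12 to 0.11 with a library left out), Phlda3 in Control (-0.10 as deposited, -0.052 on the nuclear scale and -0.038 to 0.18 with a library left out), Cyp7a1 (-0.81 to 0.21 with a library left out) and Mt2 (-5.06 to 1.04 with a library left out). The cause of these shifts was not tested. With 2 livers per age and 1 female liver among the 4, small changes were beyond reach, and genes near 1 FPKM rest on few reads.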

Other observations

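Genes outside the gene groups, chosen after their values were seen, included further blood cell genes that fell. Ank1, which anchors the red cell membrane skeleton, had 7.32 and 7.04 rescaled FPKM in W1 Control and 34.9 and 32 in P1 Control (-2.07 on the log2 scale, limma's adjusted p = 1.34e-05). The blood transcription factor genes Gfi1b and Tal1 changed by -2.02 and -1.69, and the cell cycle factor gene E2f2 by -2.02. Phgdh, the first enzyme of serine synthesis, had 4.35 and 4.64 in W1 Control and 21.6 and 17.3 in P1 Control (-1.89, SE 0.35). Odc1, the rate-limiting enzyme of polyamine synthesis, had 29.9 and 26.8 in W1 Control and 91.8 and 119.8 in P1 Control (-1.85), and the large neutral amino acid transporter gene Slc7a5 had 3.47 and 3.58 in W1 Control and 13.3 and 15.8 in P1 Control (-1.78).

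Among genes that rose outside the groups, also chosen after their values were seen, Inhbb, an activin subunit gene, had 11.9 and 17.2 in W1 Control and 1.58 and 2.34 in P1 Control (2.38, SE 0.22, adjusted p = 2.98e-05), and its relative Inhbc had 73.9 and 93.9 in W1 Control and 22.5 and 22.8 in P1 Control (1.83). Notum, which inactivates Wnt proteins, had 10.1 and 14.5 in W1 Control and 2.25 and 2.43 in P1 Control (1.98). The lipoprotein gene Apoc1 had 9371 and 11049 in W1 Control and 3422 and 3243 in P1 Control (1.61, not called with no filter on low values), and the complement inhibitor gene C4bp had 25.6 and 27.6 in W1 Control and 4.98 and 4.6 in P1 Control (2.25).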
